A study of Mus musculus with 4 samples.

Results

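The genes described here encode the enzymes of glycolysis and glycogen metabolism that exist as tissue isoforms, with the glucose transporters, the fructose bisphosphatases, the enzymes that set fructose 2,6-bisphosphate and the pyruvate dehydrogenase kinases. They were chosen by gene symbol from a list of 38 symbols. On the arrays 35 of these, with 60 probes, had a probe of that symbol, out of 19532 genes tested in all. No probe was named Gpi1, Eno1 or Pfkfb1, so their expression was not analysed here, though their start regions are counted below. RNA from the skin of Tsk1/+ mice, which carry a mutation in the gene of fibrillin-1 on 1 chromosome, was hybridised on 4 two-colour arrays. The arrays are numbered 1-1, 1-2, 2-1 and 2-2 in their titles. Each was run against a cell-line reference RNA that the labels call UMR. Whether a single line or several make up that reference is not resolved here. Tsk1/+ mice serve as a model of scleroderma. All 4 samples belong to 1 group, and the labels give no age, sex, skin site, strain or pooling of animals. No skin without the mutation was analysed here, so the values compare Tsk1/+ skin with cultured cells and say nothing of an effect of the mutation. Whether the samples are separate animals is not labelled. The p-values therefore cover the spread over these 4 samples alone, and that spread may be technical.

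Glycolysis splits glucose into pyruvate in the cytosol, and glycogen is the branched glucose polymer that muscle, liver and other tissues store and break down. Several steps are catalysed by products of different genes: skeletal muscle has its own phosphoglycerate mutase, enolase, phosphofructokinase and glycogen phosphorylase, while most other cells use forms found almost everywhere, or forms typical of liver, brain or blood cells. GLUT4, the transporter that insulin brings to the surface of muscle and fat cells, and GLUT1, the transporter of most dividing cells, differ in the same way. Mouse skin holds a thin sheet of striated muscle beneath the fat of the dermis, the panniculus carnosus, beside epidermis, dermis and fat.

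Start regions of muscle isoforms and of widely expressed isoforms that lay at opposite ends of the measurements are shown first, so that their letters can be compared. Each runs 5′ to 3′ along the gene from 250 bases before the annotated start to 50 bases after it, as given by RefSeq on GRCm38.p6. Capitals mark matches, on either strand, to CAGCTG, an E-box of the kind bound by myogenic factors, to the 10-letter MEF2 motif, to ACGTG or GCGTG, the core of hypoxia response elements, to TATAAA, to GGGCGG, the GC box, and to CCAAT. An E-box that also holds ACGTG, written CACGTG, was searched too. Neighbouring capitals can belong to overlapping matches. The muscle isoforms Pgam2, Eno3, Pygm and Fbp2 read:
Pgam2, chr11:5803747-5804046, - strand: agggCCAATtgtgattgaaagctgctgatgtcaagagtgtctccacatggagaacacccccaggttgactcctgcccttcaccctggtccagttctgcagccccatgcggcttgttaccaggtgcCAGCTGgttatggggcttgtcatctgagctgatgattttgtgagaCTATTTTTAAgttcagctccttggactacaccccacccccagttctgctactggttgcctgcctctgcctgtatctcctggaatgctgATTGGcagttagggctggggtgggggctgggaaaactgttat
Eno3, chr11:70656926-70657225, + strand: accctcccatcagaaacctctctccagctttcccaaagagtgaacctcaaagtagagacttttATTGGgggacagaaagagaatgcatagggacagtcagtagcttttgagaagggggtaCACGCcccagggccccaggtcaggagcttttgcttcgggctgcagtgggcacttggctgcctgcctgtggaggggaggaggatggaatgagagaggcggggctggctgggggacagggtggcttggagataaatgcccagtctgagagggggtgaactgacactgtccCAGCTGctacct
Pygm, chr19:6384158-6384457, + strand: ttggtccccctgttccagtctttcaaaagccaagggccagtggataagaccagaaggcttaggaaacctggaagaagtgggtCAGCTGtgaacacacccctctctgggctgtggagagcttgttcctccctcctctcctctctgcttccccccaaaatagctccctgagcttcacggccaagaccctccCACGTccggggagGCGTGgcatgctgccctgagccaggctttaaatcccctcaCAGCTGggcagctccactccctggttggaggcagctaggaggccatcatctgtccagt
Fbp2, chr13:62858351-62858650, - strand: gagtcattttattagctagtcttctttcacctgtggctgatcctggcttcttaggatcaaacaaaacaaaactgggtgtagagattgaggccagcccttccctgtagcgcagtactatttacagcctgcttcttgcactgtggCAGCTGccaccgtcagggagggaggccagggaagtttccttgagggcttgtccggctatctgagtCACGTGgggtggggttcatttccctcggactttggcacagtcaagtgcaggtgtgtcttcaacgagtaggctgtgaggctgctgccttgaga

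The isoforms of wide expression Pgam1, Slc2a1 and Pgk1 read:
Pgam1, chr19:41911621-41911920, + strand: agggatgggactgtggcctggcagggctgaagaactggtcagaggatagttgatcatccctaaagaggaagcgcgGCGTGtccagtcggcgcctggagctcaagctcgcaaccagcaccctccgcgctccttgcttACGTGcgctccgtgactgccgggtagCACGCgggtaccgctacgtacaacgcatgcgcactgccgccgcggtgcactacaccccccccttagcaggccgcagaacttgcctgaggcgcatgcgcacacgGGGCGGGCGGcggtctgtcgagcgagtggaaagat
Slc2a1, chr4:119108495-119108794, + strand: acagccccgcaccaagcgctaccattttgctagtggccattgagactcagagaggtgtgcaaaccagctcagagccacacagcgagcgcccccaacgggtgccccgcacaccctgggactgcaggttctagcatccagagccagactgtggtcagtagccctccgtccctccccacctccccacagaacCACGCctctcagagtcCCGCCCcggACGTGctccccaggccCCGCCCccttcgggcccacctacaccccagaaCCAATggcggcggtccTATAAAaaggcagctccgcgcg
Pgk1, chrX:106186850-106187149, + strand: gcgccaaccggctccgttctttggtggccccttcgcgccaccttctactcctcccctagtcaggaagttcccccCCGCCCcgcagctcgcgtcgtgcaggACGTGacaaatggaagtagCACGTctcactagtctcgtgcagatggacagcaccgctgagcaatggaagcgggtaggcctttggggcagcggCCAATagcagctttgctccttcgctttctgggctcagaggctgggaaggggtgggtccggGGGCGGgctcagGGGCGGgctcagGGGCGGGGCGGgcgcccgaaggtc

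CAGCTG was present in the printed regions of all 4 muscle isoforms and in none of the 3 others. The printed regions were picked for their measured values. Pfkm, a muscle isoform higher in skin but not printed, held no CAGCTG, nor did Phkg1. In Pgam2 the CAGCTG match began 125 bases before the start and the MEF2 match 80 bases before it. The GC box was present in the 3 regions of Pgam1, Slc2a1 and Pgk1, 5 times in Pgk1, and in none of the 4 muscle isoforms printed. Of the 38 genes listed, 35 had a start region, and these are not the 35 genes measured. Slc2a4, Slc2a3 and Gys2 had no start region, while Gpi1, Eno1 and Pfkfb1 had a region but no named probe. Some genes had more than 1, so the counts that follow are of regions: 10 of muscle isoforms, 12 of genes typical of muscle and further tissues, 15 of ubiquitous isoforms and 16 of isoforms of other tissues, in that order. CAGCTG was found in 5, 3, 1 and 1 of them, against 16.3% of 32851 regions of all genes, and the muscle isoforms holding it were Eno3, Fbp2, Pgam2, Phka1 and Pygm. The GC box was found in 1, 5, 10 and 7, against 35.7% of all regions. The classes also differed in base composition: the median GC content was 53.5%, 60.3%, 63.3% and 56.3% in the same order, against 52.7% over all regions. Whether the GC box counts differ beyond that was not tested. A hypoxia core was found in 7, 6, 12 and 12, against 43.8%, and CCAAT in 3, 8, 5 and 6, against 37.4%. The rarer motifs were the MEF2 motif in 1, 1, 0 and 0 (3.19% of all regions), TATAAA in 0, 1, 1 and 2 (13.6%) and CACGTG in 2, 1, 2 and 1 (7.15%). A match describes letters and is not evidence of binding.

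Each value below is a log2 ratio of skin over reference, averaged over the probes of a gene. The labels give the dyes, Cy3 for skin and Cy5 for the reference, but not the numerator. The direction was therefore read from 14 genes of the cornified epidermis, whose median deposited value lay at -5.08, -4.60, -4.50 and -5.45 on arrays 1-1, 1-2, 2-1 and 2-2. All signs were turned, so that positive means higher in skin, and each direction below is likely rather than settled by the labels. No array had the dyes swapped, so dye and tissue cannot be told apart. An exact 0 was listed for 21.4% to 29.1% of the probes of an array, and 50.8% to 59.4% of probes, zeros included, held a value that at least 50 probes of that array shared. Among the 240 probe values of the enzyme genes, 20 were exact zeros and 53 more were shared values. They lay in 14 of the 35 genes, and of the 19 genes that passed the test below, Pfkfb3 and Aldoc held any. Of the skin markers, 12 of 14 cornified genes and 6 of 8 basal keratinocyte genes were higher in skin, while Flg, which encodes filaggrin, was listed at 0 on all 4 arrays. The cornified genes set the direction, so their count is no check of it.

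Relative to the reference, 13 of the 35 genes were higher in Tsk1/+ skin and 6 were lower, each with the same sign on all 4 arrays, and 16 did not pass (limma, mean against 0, Benjamini-Hochberg adjusted p below 0.05 over all genes and a mean of at least 1 in size). Over all genes tested, 11.0% passed as higher and 7.52% as lower, while 27.8% lay above 0 and 23.8% below 0 on all 4 arrays. With no minimum size 16 of the 35 genes were higher and 12 lower, against 23.2% and 19.8% of all genes, and in limma's treat against a 2-fold change 11 were higher and 5 lower, against 6.85% and 3.55%. Among the 7 muscle isoforms 5 were higher and none lower, with a median of 3.71. Among 6 genes typical of muscle and further tissues 4 were higher and none lower, with a median of 2.02. Among 8 ubiquitous isoforms 1 was higher and 3 were lower, with a median of -0.65, and among 14 isoforms of other tissues 3 were higher and 3 lower, with a median of -0.06. The median over all genes tested was 0.02. Of the 16 that did not pass, 9 had an adjusted p below 0.05 but a mean under 1 in size. In whole-tissue RNA, fewer cells of a type and less RNA per cell cannot be told apart.

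**Figure D1:**
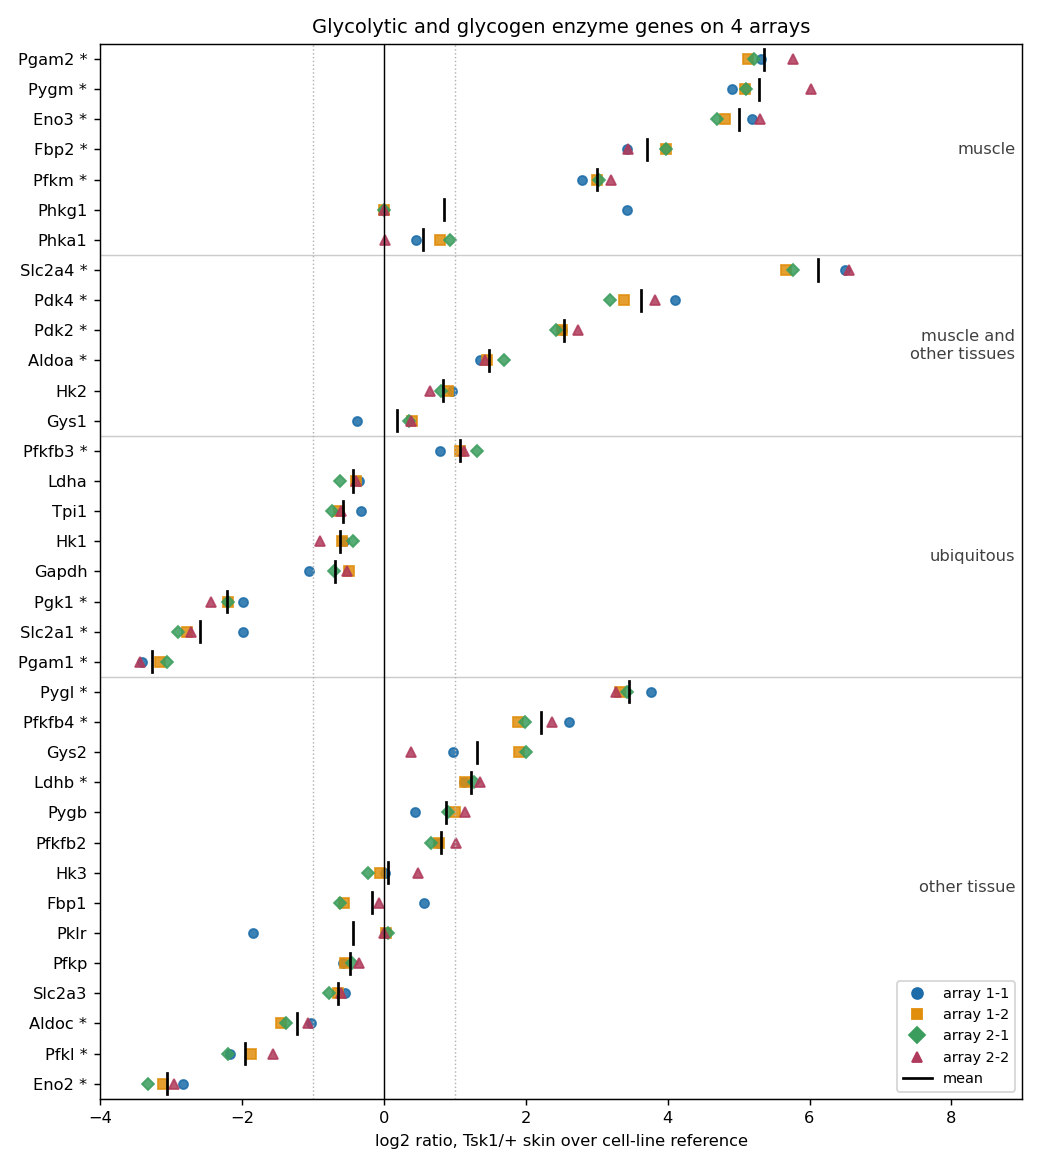
Log2 ratio of Tsk1/+ skin over the cell-line reference (horizontal axis) for the 35 measured genes, grouped by isoform class; each symbol is 1 of 4 arrays, black ticks are means, dotted lines mark a size of 1, and an asterisk marks genes that passed the test. Muscle isoforms reach means of 3.01 to 5.36 where they passed, and the lowest means are those of Pgam1 at -3.27 and Eno2 at -3.06.

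Glucose transporters lay on both sides of 0. Slc2a4 (GLUT4, Entrez Gene 20528) stood at 6.50, 5.67, 5.76 and 6.56 on arrays 1-1, 1-2, 2-1 and 2-2. It was the highest of the 35 genes, at 6.12 ± 0.47 (SD, n = 4, as for every ± below) or 69.7-fold, with an adjusted p of 0.000485 by limma. Slc2a1 (GLUT1) stood at -1.98, -2.77, -2.90 and -2.72 on the same arrays. At -2.59 ± 0.41 it was 6.02-fold lower in skin (limma adjusted p = 0.00176), with array 1-1 nearest to 0. Slc2a3 (GLUT3), the transporter of neurons and of some blood cells, averaged -0.64 ± 0.10 and did not reach the minimum size. Its 3 probes differed, with means from -1.74 to -0.08, and 5 of its 12 probe values were exact zeros. Without exact zeros Slc2a3 averaged -1.16 and passed.

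Hexokinases, which trap glucose in the cell by phosphorylating it, moved little. Hk2, the form of muscle and fat that responds to insulin, stood at 0.96, 0.91, 0.80 and 0.65 on arrays 1-1, 1-2, 2-1 and 2-2 (0.83 ± 0.14, adjusted p = 0.00198 by limma, under the minimum size). Hk1, the widely expressed form, averaged -0.62 ± 0.20 over 6 probes, whose means lay between -0.94 and -0.38, with 2 zeros and 6 shared values among 24. Hk3, known from leukocytes, averaged 0.05 ± 0.30. All 4 arrays were above 0 for Hk2 and below 0 for Hk1, and Hk3 lay on both sides.

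Phosphofructokinase, which commits the sugar to glycolysis, has subunits named for muscle, liver and platelets. Pfkm, the muscle subunit, stood at 2.79, 3.0, 3.04 and 3.20 on arrays 1-1, 1-2, 2-1 and 2-2, or 8.05-fold (3.01 ± 0.17, limma adjusted p = 0.000335). Pfkl, the liver subunit, stood at -2.17, -1.87, -2.20 and -1.56 (-1.95 ± 0.30, limma adjusted p = 0.00158). Pfkp, the platelet subunit, averaged -0.48 ± 0.11, with 4 shared values among 12. On all 4 arrays Pfkm lay above 0, and Pfkl lay below Pfkp. How often other genes keep such an order was not counted.

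The opposing step is run by fructose bisphosphatases. Fbp2, the muscle form, stood at 3.42, 3.98, 3.97 and 3.45 on arrays 1-1, 1-2, 2-1 and 2-2 (3.71 ± 0.31, 13.1-fold, limma adjusted p = 0.000566). Fbp1, the liver form, ranged from -0.62 to 0.57 with a mean of -0.17 ± 0.55, and all 4 of its values were shared values. The bifunctional enzymes that make and remove fructose 2,6-bisphosphate, the activator of phosphofructokinase, lay above 0. Pfkfb4, first known from testis, stood at 2.61, 1.88, 1.99 and 2.37 and was higher (2.21 ± 0.34, limma adjusted p = 0.00159). Pfkfb3, the inducible form, was higher at 1.08 ± 0.22 (limma adjusted p = 0.00325), close to the minimum size. Its 3 probes had means of 2.13, 0.74 and 0.37, and 3 of their 12 values were exact zeros and 4 were shared values. Without exact zeros its mean was 1.61, and without zeros and shared values 2.07. Without array 2-1 its mean was 0.997 and just missed the size, and with the median over probes it was 0.81 (adjusted p = 0.102). Pfkfb2, the heart form, averaged 0.81 ± 0.15 over 4 probes and did not reach the size. Of its 16 probe values 2 were zeros and 9 were shared values, and without them it averaged 1.18 and passed, as it did with the probe of largest size at 1.16.

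The middle steps were led by aldolase. Aldoa, the aldolase of muscle and red blood cells, stood at 1.36, 1.46, 1.70 and 1.43 on arrays 1-1, 1-2, 2-1 and 2-2 (1.49 ± 0.15, limma adjusted p = 0.000717), with probe means of 1.48 and 1.49. Aldoc, the brain form, stood at -1.03, -1.44, -1.37 and -1.06 and was lower (-1.23 ± 0.21, limma adjusted p = 0.00212). Its probes had means of -1.72 and -0.73, the second with 3 shared values among 4. The next enzymes, each made from 1 main gene in most tissues, were at or below 0. Triose phosphate isomerase, Tpi1, averaged -0.57 ± 0.17 with 4 shared values among 8, and glyceraldehyde phosphate dehydrogenase, Gapdh, averaged -0.69 ± 0.26 with 3 shared values among 12; neither reached the size. Gapdh has many near-identical pseudogenes, so its probes may read more than 1 transcript. Phosphoglycerate kinase, Pgk1, stood at -1.99, -2.19, -2.20 and -2.43 and was lower by 4.61-fold (-2.20 ± 0.18, limma adjusted p = 0.000559), with probe means of -2.13 and -2.28.

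Phosphoglycerate mutase and enolase showed the muscle and other forms at opposite ends. Pgam2, the muscle mutase (Entrez Gene 56012), stood at 5.32, 5.13, 5.22 and 5.77 on arrays 1-1, 1-2, 2-1 and 2-2 (5.36 ± 0.28, 41.1-fold, limma adjusted p = 0.000316). Pgam1, the form of brain and most other tissues, stood at -3.41, -3.15, -3.06 and -3.44, the lowest mean of the 35 genes (-3.27 ± 0.19, 9.61-fold lower, limma adjusted p = 0.000348). These are the genes whose start regions open the printed sets.

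Eno3, the muscle enolase, stood at 5.19, 4.80, 4.70 and 5.31 on arrays 1-1, 1-2, 2-1 and 2-2 (5.0 ± 0.29, 32.0-fold, limma adjusted p = 0.000354). Eno2, the enolase of neurons, stood at -2.83, -3.11, -3.33 and -2.96 (-3.06 ± 0.22, 8.31-fold lower, limma adjusted p = 0.000435), with 2 probes at -2.99 and -3.12. No probe was named for the ubiquitous enolase Eno1.

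Pyruvate and lactate enzymes were less divided. Ldhb, the lactate dehydrogenase subunit of heart and other oxidative tissues, stood at 1.13, 1.14, 1.27 and 1.36 on arrays 1-1, 1-2, 2-1 and 2-2 (1.22 ± 0.11, limma adjusted p = 0.000637). Ldha, the subunit of muscle and of most glycolytic cells, averaged -0.44 ± 0.12 and did not reach the size. Its 2 probes disagreed, at -1.05 ± 0.18 and 0.18 ± 0.34, and with the probe of larger size Ldha passed as lower. Pklr, the pyruvate kinase of liver and red blood cells, had -1.85 on array 1-1. Arrays 1-2 and 2-1 gave 0.03 and 0.07 for it, and array 2-2 listed a 0. Its 3 values other than 0 were shared values.

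Pyruvate dehydrogenase kinases switch off the entry of pyruvate into the mitochondrial citrate cycle. Pdk4, the kinase induced in muscle by fasting, stood at 4.10, 3.39, 3.19 and 3.83 on arrays 1-1, 1-2, 2-1 and 2-2 (3.63 ± 0.41, 12.4-fold, limma adjusted p = 0.000881). Pdk2, a form with wide expression that is high in heart and muscle, stood at 2.51, 2.51, 2.43 and 2.73 (2.55 ± 0.13, limma adjusted p = 0.000316). The remaining members of this kinase family had means below 0: Pdk1 was lower (-1.48 ± 0.17, limma adjusted p = 0.000922), and Pdk3 averaged -0.91 ± 0.13, under the minimum size.

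Glycogen phosphorylases release glucose from glycogen, and 2 of the 3 forms were higher in skin. Pygm, the muscle form, stood at 4.90, 5.10, 5.11 and 6.02 on arrays 1-1, 1-2, 2-1 and 2-2 (5.28 ± 0.50, 38.9-fold, limma adjusted p = 0.000651), and array 2-2 lay above the others. Pygl, the liver form, stood at 3.77, 3.33, 3.43 and 3.27 (3.45 ± 0.22, 10.9-fold, limma adjusted p = 0.000389). Pygb, the brain form, averaged 0.87 ± 0.31 and did not reach the size. All 3 forms were above 0 on all 4 arrays.

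Synthesis and control of glycogen were less clear. Gys1, the glycogen synthase of muscle and many other tissues, had -0.38 on array 1-1, with 0.40, 0.36 and 0.38 for the other arrays (limma adjusted p = 0.452). Gys2, the liver synthase, stood at 0.97, 1.90, 2.00 and 0.39 (1.32 ± 0.78) and just missed the threshold at a limma adjusted p of 0.0520. Its only probe held shared values on 3 arrays and no exact zero. The call for Gys2 changed under 9 of 15 alternatives. With the exact zeros of other genes left out, its mean stayed at 1.32 (limma adjusted p = 0.00674). It also passed without array 2-2 (limma adjusted p = 0.0443). Phosphorylase kinase activates phosphorylase. Phkg1, its muscle catalytic subunit, had 3.42 on array 1-1, while the other 3 arrays listed a 0 (limma adjusted p = 0.452). Phka1, the muscle form of a regulatory subunit, stood at 0.46, 0.80, 0.93 and 0.02 (limma adjusted p = 0.0904), with 4 exact zeros and 6 shared values among its 12 probe values.

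**Figure D2:**
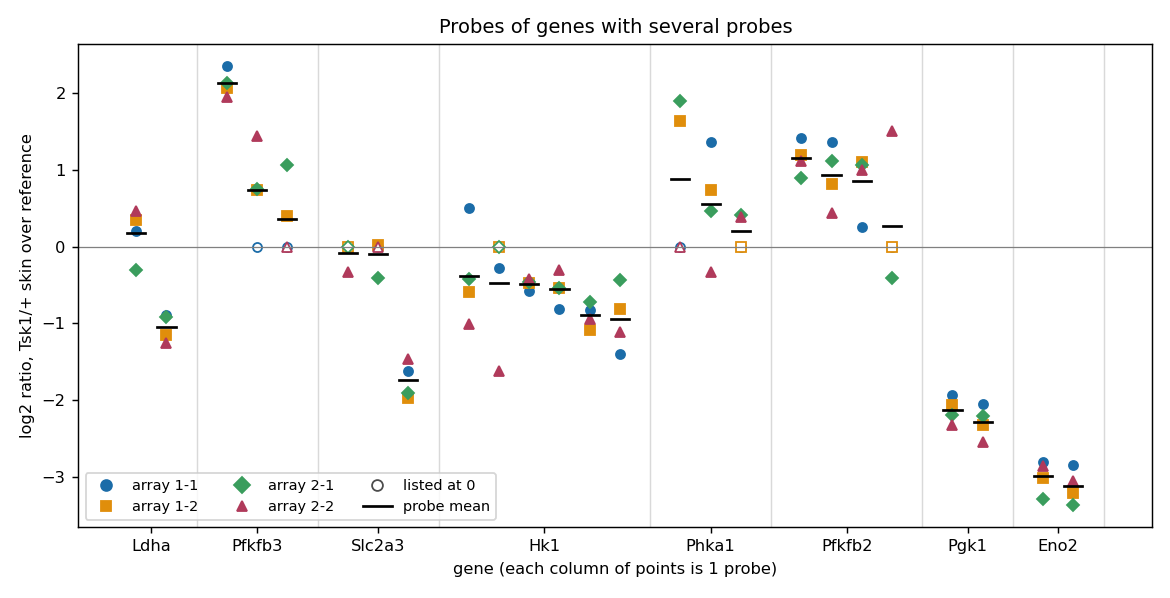
Log2 ratio of skin over reference (vertical axis) for each probe of 8 genes with several probes; symbols are arrays, open symbols are values listed at 0, and black bars are probe means. The 2 probes of Ldha lie on either side of 0 at 0.18 and -1.05, the 3 of Pfkfb3 spread from 0.37 to 2.13, and the 2 of Pgk1 and of Eno2 lie close together.

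Muscle forms were then set against other forms of the same reaction, as the difference of the log2 ratios on each array. Such a difference shows unequal change between skin and reference and is no comparison of levels, and a shift of a whole array cancels in it. In the pairs of Slc2a4, Hk2, Aldoa and Gys1, the gene counted as the muscle form is typical of muscle and further tissues. Of 12 pairs that could be formed among the 13 fixed, the muscle form was higher on all 4 arrays in 10, and in 1, Gys1 minus Gys2, it was lower on all 4 arrays. With 4 arrays an exact sign-permutation test cannot go below p = 0.125 (two-sided), the value reached by these 11 pairs, so no pair could pass a threshold of 0.05. Ldha and Ldhb were not among the fixed pairs. Ldha, the subunit of muscle and most glycolytic cells, lay below Ldhb on all 4 arrays (means of -0.44 and 1.22). How often other gene pairs keep the same order on all 4 arrays was not counted.

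Slc2a4 exceeded Slc2a1 by 8.48, 8.44, 8.65 and 9.28 on arrays 1-1, 1-2, 2-1 and 2-2 (8.71 ± 0.39). Pgam2 exceeded Pgam1 by 8.73, 8.29, 8.28 and 9.21 (8.63 ± 0.44), an unequal change of 396-fold. Eno3 exceeded Eno2 by 7.91 to 8.26 (8.05 ± 0.15), a pair added after it was seen that Eno1 had no named probe. In these 3 pairs the spread between arrays was far smaller than the difference.

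Pfkm exceeded Pfkl by 4.96 ± 0.20 and Pfkp by 3.49 ± 0.08, the smallest spread of any pair. Pygm exceeded Pygb by 4.41 ± 0.35 and Pygl by 1.83 ± 0.68, and the difference to Pygl was 1.13 on array 1-1 and 2.75 on array 2-2. Fbp2 exceeded Fbp1 by 3.88 ± 0.85, where Fbp1 held shared values alone. Aldoa exceeded Aldoc by 2.71 ± 0.33 and Hk2 exceeded Hk1 by 1.45 ± 0.15. Phka1 exceeded Phka2, the liver form, by 0.69 ± 0.36, from 0.20 to 0.96, where 10 of 12 probe values of Phka1 were zeros or shared values, and Phka2 held 3 zeros and 13 shared values among 20. That difference was 0.33 with the median over probes, 1.06 without exact zeros and 1.20 with the probe of largest size.

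For 2 pairs of glycogen enzymes the muscle form did not stand above the other. Gys1 minus Gys2 was -1.35, -1.5, -1.64 and -0.01 on arrays 1-1, 1-2, 2-1 and 2-2. Phkg1 minus Phkg2, the liver and testis form, was 3.47 on array 1-1 and -0.36, -0.30 and -0.30 on the others, where Phkg1 was listed at 0 (exact p = 1.0). Without array 1-1 that mean difference was -0.32, against 0.63 with it.

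**Figure D3:**
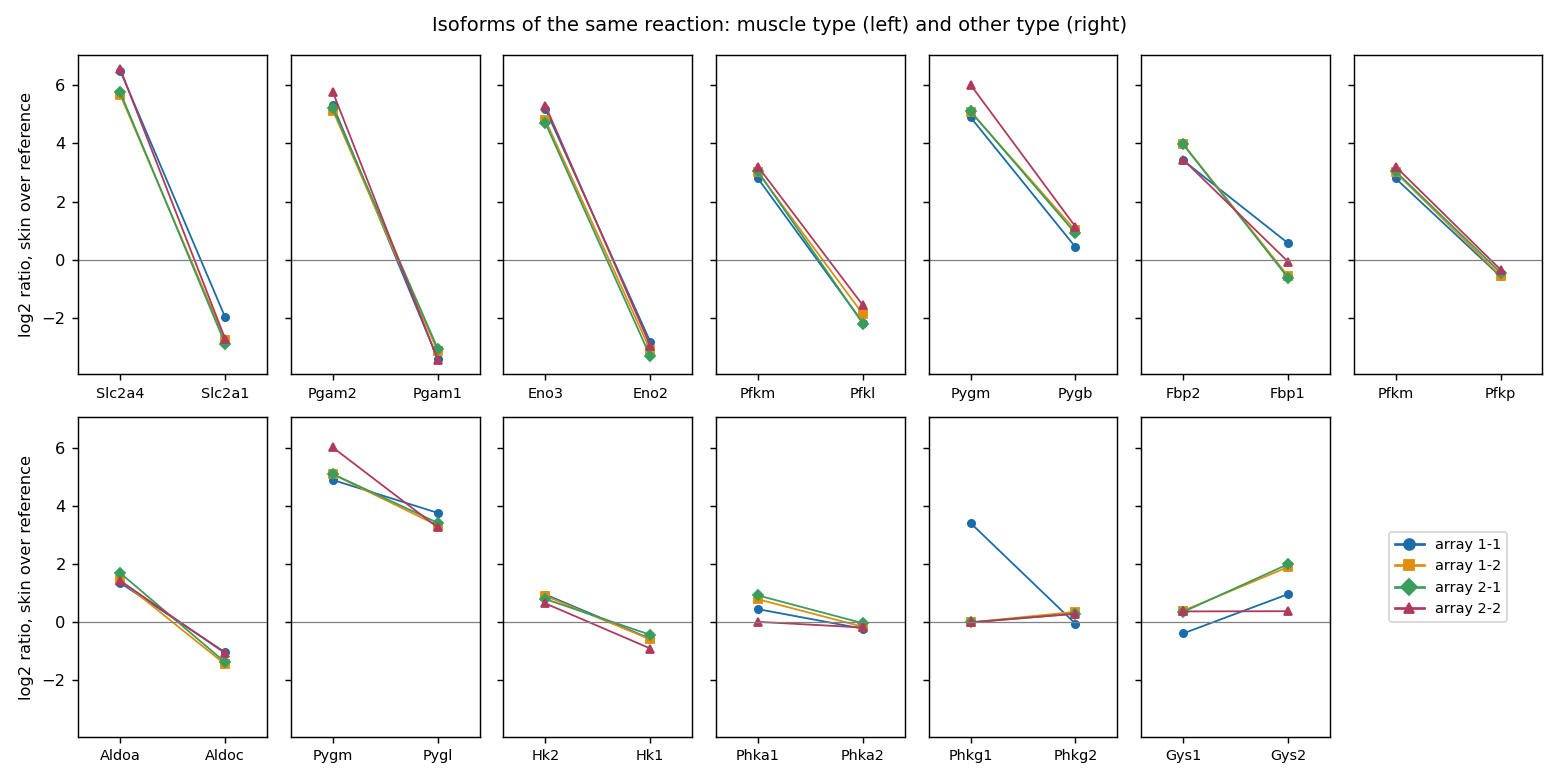
Log2 ratio of skin over reference (vertical axis) for the muscle form on the left and the other form on the right of each panel, in 13 pairs ordered by mean difference; each line joins the 2 values of 1 of 4 arrays. Lines fall from left to right on all 4 arrays in all panels but the last 2, Phkg1 with Phkg2 and Gys1 with Gys2.

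Markers of the tissues that use these isoforms were read on the same arrays. All 15 skeletal muscle markers were higher in skin. For 14 of them no probe was listed at 0, and Ttn had 13 zeros among 40 probe values; the median of the list was 5.88, 5.37, 5.15 and 6.37 on arrays 1-1, 1-2, 2-1 and 2-2, and its sum of log2 ratios ranged from 77.7 to 92.8. All 9 measured adipocyte markers were higher, with 2 zeros among 12 probe values of Fabp4 and 3 among 12 of Lipe, and with medians of 5.08, 5.22, 5.37 and 5.29 and sums from 42.9 to 47.9. None of 6 hepatocyte markers passed, with a median of 0.00 over genes, and Alb, Apoa1, Ttr and Apoh were listed at 0 on 1 or more arrays. Of 6 neuron and Schwann cell markers 2 were higher, with medians from -0.15 to 0.51 on the arrays, and of 7 macrophage and neutrophil markers 4 were higher and 1 lower, with medians from 0.98 to 4.59. Of 3 measured red blood cell markers 1 was higher, and all 5 proliferation markers were lower, with a median of -1.89. The part of any of these cell types in the enzyme values was not tested.

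Array 2-2 gave the highest value for 14 of 15 skeletal muscle markers, the exception being Ttn. Among the 5 muscle isoforms that were higher, array 2-2 was highest for Pgam2, Eno3, Pygm and Pfkm, and array 1-2 for Fbp2. The same array was also highest for 9 of the 12 cornified genes and 7 of the 9 adipocyte markers that were higher, so this order was shared with lists outside muscle. Among genes that were higher, it was highest for 4 of 6 basal keratinocyte and 2 of 2 neuron and Schwann cell markers. For macrophage and neutrophil markers it was 2 of 4, and for isoforms of other tissues 1 of 3. The share over all genes that were higher was not counted. Slc2a4, Pdk4, Pfkfb4, Pgam2 and Eno3, among others, lay higher on arrays 1-1 and 2-2 than on arrays 1-2 and 2-1. Fbp2 and Gys2, among others, lay lower on arrays 1-1 and 2-2. The medians of the skeletal muscle, cornified and basal keratinocyte markers were also higher on arrays 1-1 and 2-2, but that of the adipocyte markers was not. The pattern was therefore not particular to the enzyme genes named.

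**Figure D4:**
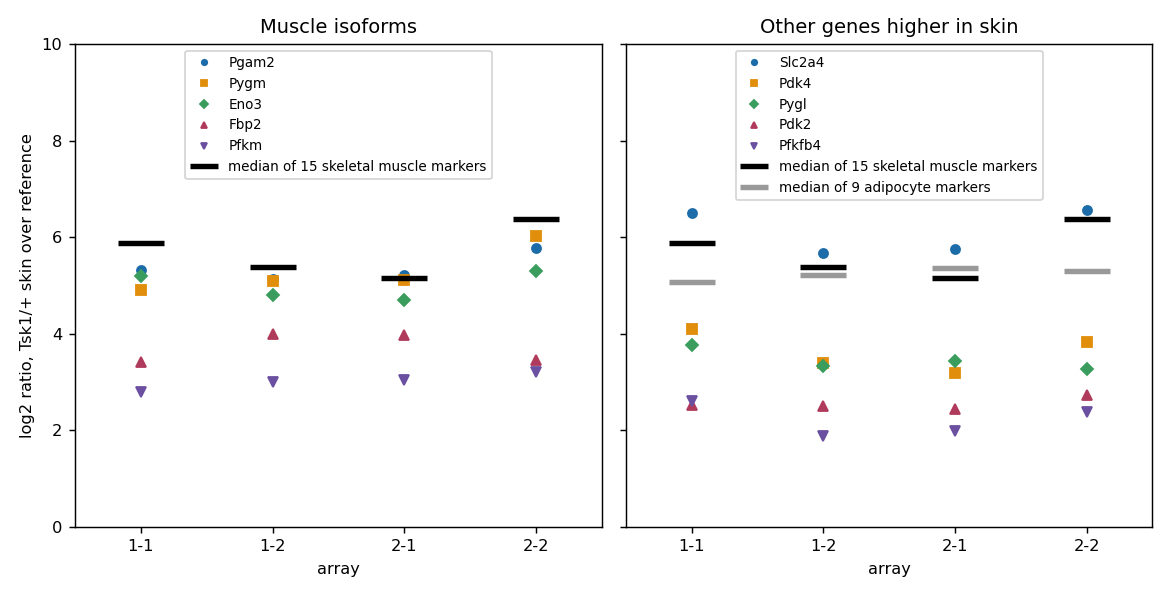
Log2 ratio of skin over reference (vertical axis) on each of the 4 arrays (horizontal axis) for 5 muscle isoforms (left) and 5 further genes that were higher in skin (right); thick bars are the medians of 15 skeletal muscle markers (black) and 9 adipocyte markers (grey). The muscle marker median is highest on array 2-2 at 6.37, as are Pgam2 at 5.77 and Pygm at 6.02.

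Other genes of the pathway, 64 measured of 70 listed, were read in the same test: 15 were higher and 6 lower, or 23.4% and 9.38%, against 11.0% and 7.52% of all genes tested. Of 19 further genes of glycolysis and lactate, 2 were higher and 1 lower. Slc2a10, a transporter of the glucose family (1.34 ± 0.31), and Bpgm, which makes 2,3-bisphosphoglycerate in red blood cells (1.31 ± 0.07), were higher. Pkm, the pyruvate kinase of muscle and of most other tissues, was lower at -1.06 ± 0.30, with probe means from -2.04 to -0.42; the probes are not assigned here to its splice forms. Slc2a12, a transporter of muscle and fat, had 5.16 on array 1-2 and 5.56 on array 2-1, while arrays 1-1 and 2-2 listed a 0.

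Of 20 further glycogen genes, 5 were higher and 1 lower. Ppp1r3c, a subunit that targets protein phosphatase 1 to glycogen, stood at 2.61, 5.70, 5.28 and 4.93 on arrays 1-1, 1-2, 2-1 and 2-2 (4.63 ± 1.38, limma adjusted p = 0.00835). Its probe means were 3.09 and 6.17, and 1 of its 8 probe values was an exact zero. Ppp1r3d, a second such subunit, was higher at 3.12 ± 0.24. Gyg, the glycogenin that primes glycogen chains (1.87 ± 0.27), Ugp2, which makes UDP-glucose (1.68 ± 0.16), and Ppp1r3a, the muscle targeting subunit (2.38 ± 1.27, probe means of 0.66 and 4.11), were the other 3. Ppp1r3a passed at a limma adjusted p of 0.0403, with 3 exact zeros and 2 shared values among its 8 probe values. Pgm2, a phosphoglucomutase, was lower (-1.46 ± 0.10). The phosphorylase kinase partners Phka2 and Phkg2 averaged -0.14 ± 0.08 and 0.23 ± 0.18 and did not pass.

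Of 14 genes of gluconeogenesis and pyruvate, 3 were higher and 2 lower. Pcx, the pyruvate carboxylase that also feeds fat synthesis, stood at 2.46 ± 0.12, and Mpc1, a subunit of the mitochondrial pyruvate carrier, at 1.28 ± 0.20. Pck2, the mitochondrial phosphoenolpyruvate carboxykinase, was lower at -1.84 ± 0.13, beside Pdk1. Among 11 regulators, 5 were higher and 2 lower. Prkaa2, the AMP-activated kinase subunit that predominates in skeletal muscle, was higher at 4.19 ± 0.36, while Prkaa1, the more widely expressed subunit, was lower at -1.25 ± 0.21. Mlxipl, the glucose-sensing factor ChREBP, was higher at 2.75 ± 0.80, with probe means of 0.83 and 4.68 and 3 exact zeros among 8 probe values. Myc was lower at -1.53 ± 0.06.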

How the data were processed

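Total RNA of Tsk1/+ mouse skin was labelled with Cy3, starting from 200 ng, and hybridised on two-colour Agilent arrays with a Cy5-labelled cell-line reference, per the labels. What the authors deposited is a log ratio of both channels for each probe, treated here as log2; how background was corrected and arrays normalized or centred, the direction and the log base are not stated in these sources. Each deposited column had a median of 0. The base was read from the spacing of repeated values: 21 of 3120 pairs of common values lay at the distance log2 gives (tolerance 0.001), while natural log gave 2 and log10 gave 4. Signs were turned after the cornified epidermis genes. The arrays were compared before averaging: correlations over all probes were 0.823 to 0.889, the closest pair being 1-2 and 2-1, and no array repeated another. Their number limits the precision.

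Of 41174 probes, 32664 have 1 gene symbol in the platform annotation, 45 have several and 8465 are not named. Probes of a gene were averaged, and genes with values on at least 3 arrays were tested with limma 3.58.1 in R 4.3.3 (mean against 0, two-sided, Benjamini-Hochberg); passing needed an adjusted p under 0.05 plus a mean of 1 or more in size. The fit was also run on simulated normal values with the spread of the genes. These held no exact zeros or shared values, so that run cannot show how the fit behaves with them. Isoform pairs used an exact sign-permutation test (scipy 1.17.1). Isoform classes, pairs and pathway and marker lists came from general knowledge of the genes, and they and the members were chosen with earlier results of these data known. All members were to be named, with the 2 highest and 2 lowest passing genes of each pathway list and the partners Pkm, Phka2 and Phkg2; Slc2a12, Ugp2, Gyg, Ppp1r3a and Pdk3 were added after their values were seen. Alternatives covered zeros, repeated values, normalization, probe summary, the test, title numbers as blocks and each array left out.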

Additional observations from a re-analysis of the deposited data

Results flagged for a closer look

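On single arrays, 4 of 52 screened results (35 genes, 13 pairs and 4 class medians) lay far from the other 3 arrays. Chance alone gives about 1 in 20 for independent, normally distributed values. That rate does not hold for genes with exact zeros or shared values, such as Phkg1 and Pklr. The pairs and class medians also reuse the same genes, so the 52 results are not independent. Phkg1 had 3.42 on array 1-1, while the other 3 arrays listed a 0, and for that reason Phkg1 minus Phkg2 stood at 3.47 on that array, against -0.36 to -0.30 elsewhere. Gys1 stood at -0.38 on array 1-1, against 0.36 to 0.40 on the others. Pklr stood at -1.85 on array 1-1, against 0.00 to 0.07 on the others. All 4 lay on array 1-1, and none concerned a gene that passed the test.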

How the results depend on the processing

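Of the 19 genes that passed, 16 kept their direction and call under all 16 alternatives, which covered zeros, repeated values, normalization, probe summary, stricter and looser tests, title numbers as blocks or averages, and each array left out. The other 3 kept their direction. Pfkfb3 lost its call with the median over probes and also when array 2-1 was left out. Against a 2-fold change (limma's treat) Pfkfb3, Aldoc and Ldhb lost their calls (adjusted p = 1.0, 0.293 and 0.0662), by the construction of a stricter test. The count of lower genes rose to 12 with no minimum size, against 6 with it, again by construction. The count of higher genes ranged from 11 to 16 over all alternatives. Leaving out 1 array gave 12 to 14 higher and 6 lower genes, 14 to 16 higher and 6 to 7 lower other pathway genes, and 10 pairs with the muscle form higher throughout. Of 16 genes that did not pass, 10 did under 1 or more alternatives. The 9 of them with an adjusted p below 0.05 passed by construction with no minimum size. For Hk2, Hk1, Tpi1, Gapdh and Pfkp that was the only alternative that changed the call. Phkg1 minus Phkg2 reversed to -0.32 without array 1-1. With the median over probes, 9 pairs had the muscle form higher on all arrays, against 10. With zeros and repeated values left out, 8 pairs had the muscle form higher on every array left, since some genes lost their values. No paired analysis was possible because all 4 arrays form 1 group. Scanner intensities were not used here, so signal over background is unknown and cannot show which ratios rest on dim spots.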
